A study of Mus musculus with 33 samples.

Results

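Genes of MHC class II antigen presentation and of dendritic cells were followed in sorted stem and progenitor cells of old mice, with and without nicotinamide riboside (NR), a precursor of NAD+. They are 10 of the 55376 gene symbols counted in each library: Cd83, Ifi30, Ccr7, Adgre5, Cd74, H2-Aa, H2-Ab1, H2-Eb1, H2-DMa and Ciita. The first 4 were selected on their measured counts, being lower in common lymphoid progenitors (CLPs) of NR-treated mice, and the other 6 were added because they belong to the MHC class II pathway. The CLP values of NR-treated and untreated mice are therefore a description and carry no test.

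The mice were old C57BL/6 males of 24 to 29 months. Untreated mice are called O-WT, and mice given NR in the drinking water for 4 to 6 weeks are called O-NR. Mice whose NR was withdrawn for 2 months after treatment are called O-NR-RC. Cohort 2 holds hematopoietic stem cells (HSCs), CLPs and granulocyte-macrophage progenitors (GMPs), with 4 untreated and 4 NR-treated libraries for each cell type. Cohort 1 holds HSCs alone, with 2 untreated libraries, 4 from NR-treated mice and 3 from mice after withdrawal. HSCs were sorted as lineage-negative, c-Kit-positive, Sca1-positive cells without CD34 and Flk2 and with CD150. Each library is taken to come from 1 mouse, which is not stated. By the file names, libraries of different cell types with the same number share an animal, and the main fits treated them as independent. The p-values measure the spread between these libraries.

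MHC class II molecules are pairs of an alpha and a beta chain that carry peptides of taken-up proteins to the cell surface, where CD4+ T cells read them. The invariant chain Cd74 holds the peptide groove closed on the way, the H2-DM heterodimer exchanges the last piece of Cd74 for a peptide, and the thiol reductase encoded by Ifi30 unfolds proteins with disulfide bonds in the same compartment. Ciita is the master coactivator of the class II promoters, and dendritic cells that mature carry Cd83 on the surface and follow lymph node chemokines with the receptor Ccr7.

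In the mm10 (GRCm38) annotation, the 3 classical chain genes lie side by side on chromosome 17, H2-Ab1 at chr17:34257689-34269419 on the plus strand, H2-Aa at chr17:34282744-34287823 on the minus strand and H2-Eb1 at chr17:34305867-34316674 on the plus strand. H2-DMa lies in the same region, at chr17:34119541-34139101 on the plus strand. Ciita is on chromosome 16 (10480059 to 10528418, plus strand) and Cd83 on chromosome 13 (43784775 to 43803132, plus strand). Ccr7 is on chromosome 11 (99144196 to 99155077), and Ifi30 (70762774 to 70766663) and Adgre5 (83723251 to 83741326) are on chromosome 8, all on the minus strand. Exons of Adgre5 share 895 bases with Ddx39 on the other strand, those of H2-DMa share 360 bases with Brd2, those of Ciita share 329 bases with Dexi, and those of Ifi30 share 85 bases with 6330537M06Rik. The strand setting of the counting is not stated, so the counts of these 4 members are uncertain by the reads of their partners.

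Promoters of class II genes are known for an X box and a Y box, an inverted CCAAT element, a short way before the start. RefSeq's GRCm38.p6 table held promoters for 4 of the 10 members. The 2 of them that held both elements marked below, H2-Aa and H2-Eb1, are shown for that reason. Each line gives the 120 bases before the start, 5′ to 3′ on the gene's own strand, at chr17:34287824-34287943 (minus strand) for H2-Aa and chr17:34305747-34305866 (plus strand) for H2-Eb1. The capitals mark GCAAC, within the X box region, and CTGATTGG, the Y box with the CCAAT element read backwards.
H2-Aa: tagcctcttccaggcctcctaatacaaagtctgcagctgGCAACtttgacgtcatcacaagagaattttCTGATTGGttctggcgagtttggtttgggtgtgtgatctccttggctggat
H2-Eb1: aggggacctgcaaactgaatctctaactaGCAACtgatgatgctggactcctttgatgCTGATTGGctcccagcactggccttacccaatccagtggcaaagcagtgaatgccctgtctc

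The gap between both elements was 25 bases in H2-Aa and 24 bases in H2-Eb1. These letters were chosen after reading the 2 promoters, and they were searched on both strands in the 250 bases before the start. Of 32851 promoters, 3.83% held CTGATTGG, 29.9% held GCAAC, and 0.149% held both in this order with 10 to 50 bases between them. The windows of Ifi30 and the 2 windows of H2-DMa did not hold CTGATTGG.

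Libraries held 4792380 to 23816042 counted reads. The sorted cell types were told apart by their markers: Slamf1, the gene of CD150, was at 45.7 to 95.7 CPM (counted reads relative to the library's total, scaled with TMM over each cohort) in HSCs and at no more than 11.2 CPM elsewhere, Il7r was at 154 to 312 CPM in CLPs and at no more than 16.8 CPM elsewhere, and Mpo was at no less than 14800 CPM in GMPs and no more than 427 CPM elsewhere. In cohort 1, O-NR replicates 1 and 2 and O-NR-RC replicates 2 and 3 stood apart: their summed level of 1405 olfactory receptor genes, taken as counts from outside the blood cells' own transcripts, was 7921 to 8281 CPM, against 4780 to 6662 CPM in the other 5. The sum of 6 HSC markers was 670 to 787 CPM in these 4 libraries and 1350 to 2170 CPM in the other 5. The olfactory receptor sum was lower in HSCs of cohort 2, at 1188 to 2227 CPM in O-WT and 1253 to 2013 CPM in O-NR. In cohort 2, GMP O-NR replicate 4 stood apart in myeloid genes, as given below with the GMP results.

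In CLPs, Cd83, a surface protein of mature dendritic cells and B cells, was at 7.51, 7.64, 4.24 and 17.1 CPM in O-WT and at 4.23, 3.70, 1.99 and 3.12 CPM in O-NR. Ifi30 was at 11.4, 8.87, 7.48 and 21.2 CPM in O-WT and at 4.34, 5.0, 5.34 and 5.49 CPM in O-NR. For both genes every O-NR library was below every O-WT library, as was so for 1.06% of the genes tested, and O-WT replicate 4 was far above the other 3. The log2 fold change was -1.54 (SE 0.39) for Cd83 and -1.34 (SE 0.32) for Ifi30.

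Ccr7 was at 16.6, 16, 8.85 and 24.3 CPM in CLPs of O-WT and at 12.4, 14.5, 5.96 and 9.36 CPM in those of O-NR. Adgre5, which encodes the adhesion receptor CD97 of leukocytes, was at 16.1, 11.2, 12.2 and 21.7 CPM and at 13.0, 10, 10.3 and 6.46 CPM. The groups overlapped for both, and the log2 fold changes were -0.71 (SE 0.27) and -0.70 (SE 0.26). Without O-WT replicate 4, the highest library for each of these 4 genes, the log2 fold changes were -1.07 for Cd83, -0.96 for Ifi30, -0.47 for Ccr7 and -0.49 for Adgre5. This contrast chose the members, so nothing is read from their place in it, where 0.412% of the 19909 genes tested were past an unadjusted p of 0.01 in edgeR's quasi-likelihood test.

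The class II genes themselves differed less in CLPs. Cd74, a gene of chromosome 18 (60803848 to 60812652, plus strand), was at 96.1, 57.5, 84.1 and 141 CPM in O-WT and at 65.7, 76.6, 30.5 and 107 CPM in O-NR, with a log2 fold change of -0.51 (SE 0.25). The chain genes H2-Aa, H2-Ab1 and H2-Eb1 had log2 fold changes of -0.17, -0.02 and -0.41, and Ciita had one of -0.25. H2-DMa was the only member with a log2 fold change above 0 (0.13), at 43.3, 33, 16.7 and 49.0 CPM in O-WT and at 41.3, 43.5, 36.4 and 40.8 CPM in O-NR. All 6 of these genes overlapped between the groups. The median over the 10 members was -0.46, against -0.01 over all genes tested, of which 50.7% were below 0.

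**Figure D1:**
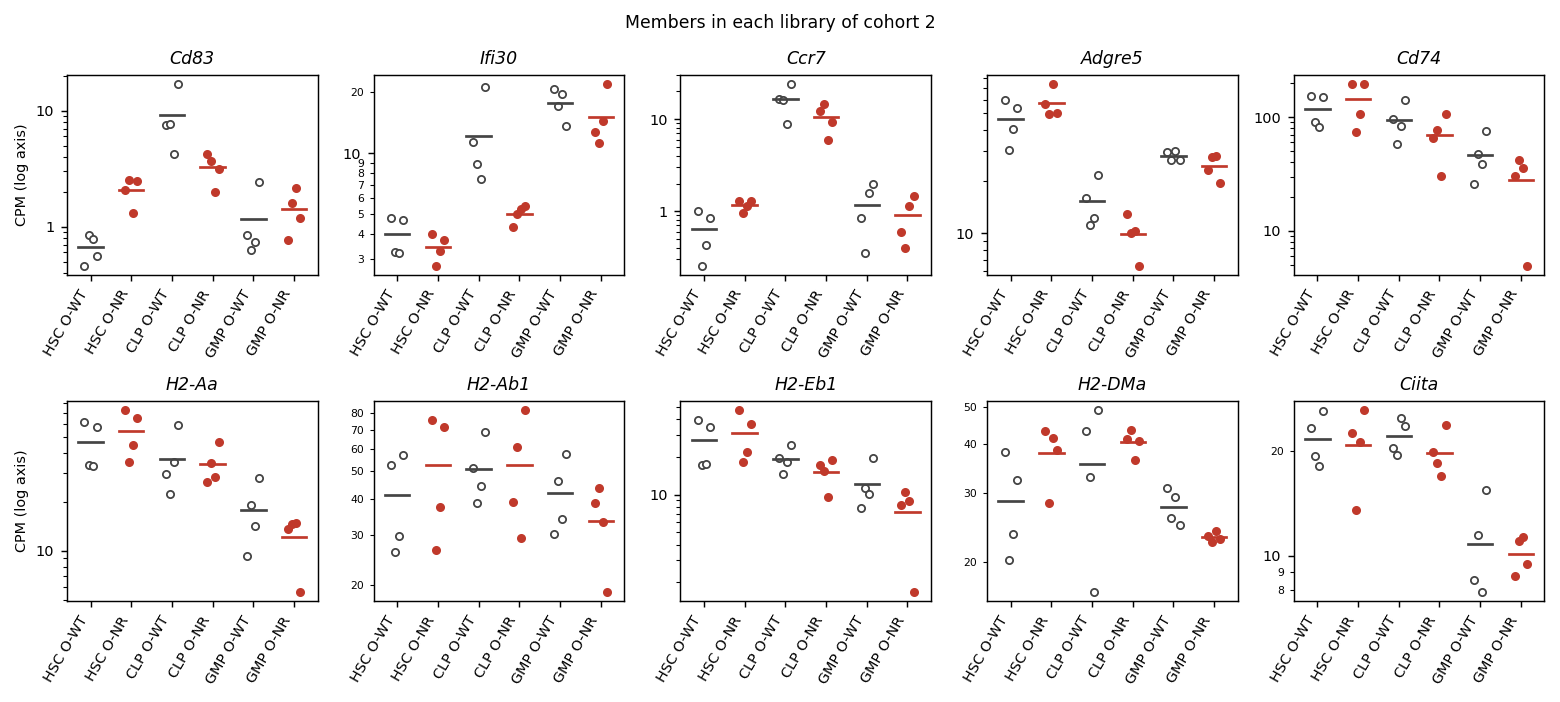
CPM of each member (log axis) in the 24 libraries of cohort 2. Open grey points are O-WT, filled red points O-NR, and bars the mean of 4 libraries. Cd83 and Ccr7 stand highest in CLPs, at 9.11 and 16.4 CPM on average in O-WT, and Cd74 lies at 4.92 CPM in 1 O-NR library of GMPs.

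Other genes of dendritic cells were read beside these values in CLPs. Of 12 markers of conventional dendritic cells, 11 were measured and all 11 had a log2 fold change below 0 (median -0.24), but their summed level overlapped, at 229 to 345 CPM in O-WT and 212 to 366 CPM in O-NR, and none was at 0 in any CLP library. Of 20 genes of dendritic cell maturation, 11 of the 17 measured were below 0 (median -0.19), with Fscn1, the actin-bundling protein of mature dendritic cells, at 17.6 ± 7.98 CPM (SD, n = 4) in O-WT and 9.92 ± 2.18 CPM in O-NR. Of 20 further genes of the class II pathway, 9 of 19 were below 0 (median 0.00). The sum of 12 B lineage markers was 649 to 1550 CPM in O-WT and 999 to 1660 CPM in O-NR, and 1 of the 12 had a log2 fold change below 0 (median 0.20). A median below 0 was not particular to dendritic cells. It was -0.26 for monocyte and macrophage markers, -0.21 for HSC markers and -0.08 for T, NK and innate lymphoid cell markers. It was 0.00 for plasmacytoid dendritic cell, 0.05 for CLP, 0.07 for plasma cell and 0.31 for GMP markers. Fewer cells of a type and less RNA per cell cannot be told apart in these bulk libraries, and the part of dendritic cells in the CLP values was not tested.

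Untreated mice of cohort 2 showed where the members are used. In O-WT of cohort 2, Cd83 and Ccr7 were nearly confined to CLPs among the 3 cell types. They were at 9.11 ± 5.53 and 16.4 ± 6.31 CPM (SD, n = 4) in CLPs. HSCs had 0.665 ± 0.185 and 0.636 ± 0.351 CPM, and GMPs had 1.16 ± 0.849 and 1.18 ± 0.726 CPM. Within cohort 2, the CLP libraries did not overlap with those of the other cell types for either gene. In cohort 1, which was scaled separately, HSCs of O-WT had 5.29 ± 0.0334 and 6.33 ± 0.0206 CPM (SD, n = 2). The log2 difference of CLPs from HSCs was 3.69 for Cd83 and 4.66 for Ccr7, and that from GMPs was 3.06 and 3.88. These are given as a description, since both genes passed the filter of 3 CPM in 4 libraries through the CLPs alone and the CLP values also entered the choice of the members. Genes were called between cell types at an adjusted p (Benjamini-Hochberg, edgeR) below 0.05.

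Ifi30 followed another order. It was at 3.22 to 4.78 CPM in HSCs, 7.48 to 21.2 CPM in CLPs and 13.7 to 20.7 CPM in GMPs of O-WT. GMPs were above HSCs by 2.09 (log2, SE 0.26, adjusted p = 5.49e-08). The CLP values, which entered the choice of Ifi30, differed by 1.60 from HSCs and by -0.49 from GMPs (95% interval -0.99 to 0.01), and the second difference was -0.65 with RLE scaling, -0.73 with the filter at 1 CPM, -0.83 with no filter and -0.96 without CLP replicate 4. Adgre5 was highest in HSCs, with 46.3 ± 13.1 CPM (SD, n = 4), followed by GMPs with 28.2 ± 1.76 CPM and CLPs with 15.3 ± 4.75 CPM. GMPs were below HSCs by 0.77 on the log2 scale (-0.77, adjusted p = 0.000429), and the CLP values, used in choosing Adgre5 too, differed by -1.58 from HSCs and by -0.81 from GMPs.

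HSCs of O-WT expressed the class II genes at levels near those of CLPs, and GMPs had lower levels of Cd74, H2-Aa, H2-Eb1 and Ciita. H2-Ab1 was at 42.0 ± 12.5 CPM (SD, n = 4) in GMPs and 41.2 ± 15.7 CPM in HSCs. H2-DMa was at 27.7 ± 2.84 CPM in GMPs and 28.6 ± 8.22 CPM in HSCs. Cd74 was at 153, 90.9, 81.0 and 150 CPM in HSCs, at 96.1, 57.5, 84.1 and 141 CPM in CLPs and at 25.6, 47.3, 38.3 and 75.0 CPM in GMPs of O-WT. GMPs lay below HSCs in every library, with a log2 difference of -1.42 (SE 0.24, adjusted p = 9.8e-06), and CLPs did not differ from HSCs beyond their spread (-0.32, 95% interval -0.80 to 0.16). H2-Aa, H2-Eb1 and Ciita had the same order of tests: GMPs were below HSCs by 1.45, 1.21 and 1.09 on the log2 scale (adjusted p = 1.16e-05, 5.15e-05 and 3.88e-05), and CLPs were above GMPs by 1.121, 0.75 and 1.117 (adjusted p = 0.000464, 0.00777 and 4.36e-05). H2-Ab1 and H2-DMa did not pass in any of the 3 comparisons with TMM scaling, and with upper quartile scaling both passed in CLPs against HSCs (0.57 and 0.53) and against GMPs (0.75 and 0.81). The difference of H2-Eb1 between CLPs and GMPs was lost with a filter at 1 CPM (0.48), with no filter (0.38), with DESeq2 (0.57), without CLP replicate 4 (0.51) and without GMP replicate 1, 2 or 3 (0.44, 0.59 and 0.52).

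These members' calls stood among many. Of the 20044 genes tested in O-WT, 30.3% were called in CLPs against HSCs, where 4 of the 10 members were called, 62.1% in CLPs against GMPs, where 7 were called, and 46.8% in GMPs against HSCs, where 6 were called. All 4 in the first count, and Cd83, Ccr7 and Adgre5 in the second, were chosen on CLP values and support nothing there. The median of all genes was 0.04, 0.32 and -0.40 in these comparisons with TMM scaling, 0.12, 0.13 and -0.13 with RLE scaling and 0.28, 0.74 and -0.58 with upper quartile scaling. The fall of Cd74, H2-Aa, H2-Eb1 and Ciita in GMPs was larger than these medians by each of the 3 scalings, while H2-Ab1 and H2-DMa in GMPs against HSCs changed sign with RLE scaling (0.21 and 0.13).

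Per length, Cd74 had the highest mean of the members in all 3 cell types of O-WT. In HSCs of O-WT it was at 70.8 ± 22.8 CPM per kilobase of exon (SD, n = 4), against 16.1 ± 6.10 for H2-Ab1, 14 ± 5.91 for H2-Eb1 and 12.2 ± 4.02 for H2-Aa, levels that overlapped. In CLPs it was at 56.4 ± 20.8 and in GMPs at 27.7 ± 12.5 CPM per kilobase, where Ifi30, at 18.1 ± 3.16, overlapped with it. Ciita, their coactivator, was at 2.27 ± 0.383, 2.31 ± 0.263 and 1.13 ± 0.358 CPM per kilobase in HSCs, CLPs and GMPs.

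The same comparisons were made in O-NR mice. In CLPs against HSCs, 4 members were called, with 40.8% of the 18080 genes tested: Cd74 (-0.90, SE 0.36, adjusted p = 0.0439) and H2-Eb1 (-0.90, SE 0.31, adjusted p = 0.0224) were lower, and Adgre5 (-2.42) and Ccr7 (3.27) are given as a description, since their CLP values chose them. Cd83, at 3.26 ± 0.963 CPM in CLPs and 2.09 ± 0.568 CPM in HSCs of O-NR (SD, n = 4), had a log2 difference of 0.74 (95% interval -0.11 to 1.59). In CLPs against GMPs all 10 were called, with 49.3% of genes, and in GMPs against HSCs 7 were called, with 45.8%. Those of Cd83, Ifi30, Ccr7 and Adgre5 in CLPs against GMPs support nothing, since their CLP values chose them. The calls of Cd74 and H2-Eb1 in CLPs against HSCs were both lost with upper quartile scaling, with DESeq2 and without HSC replicate 1, HSC replicate 4 or CLP replicate 3. DESeq2 and each of these 3 omissions left 2 members called. H2-Ab1 in CLPs against GMPs (0.67) was no longer called with the replicate number as a block (0.58), with RLE scaling (0.62), with DESeq2 (0.62), with the filter at 1 CPM (0.47) or with none (0.46). The log2 difference of Cd83 in the same comparison, again a description, was 1.20, and 0.97 without GMP replicate 1. Whether a difference between cell types itself differed between O-NR and O-WT was not tested here for CLPs, since NR and CLPs chose the members.

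Of the 20 further class II pathway genes, 19 were tested in O-WT. In CLPs against HSCs, 5 were higher and 7 lower, with a median of -0.07, where 30.3% of all genes were called in either direction. H2-Ob, a chain of the H2-DO inhibitor of peptide exchange, was at 116 ± 37.0 CPM in CLPs and 6.68 ± 2.32 CPM in HSCs (log2 4.11, SE 0.21, adjusted p = 3.48e-16), and the proteases Ctss and Lgmn were higher by 2.76 and 1.85. Cd63, a tetraspanin of late endosomes, was at 6.79 ± 3.00 CPM in CLPs and 87.1 ± 28.9 CPM in HSCs (-3.65, SE 0.24, adjusted p = 7.04e-14). In GMPs against HSCs, 4 were higher and 4 lower (median -0.05), where 46.8% of all genes were called, and Rfx5, a subunit of the factor that binds the X box, was at 43.5 ± 3.91 CPM in GMPs and 73.6 ± 17.4 CPM in HSCs (-0.81, SE 0.16, adjusted p = 9.21e-05). Of the 20 genes of dendritic cell maturation, 16 were tested, and 7 were higher and 7 lower in CLPs than in HSCs, beside the same 30.3% of all genes. Ccl5, a chemokine, was higher in CLPs by 3.65 (SE 0.55, adjusted p = 2.53e-06), and Cd274, which encodes PD-L1, was lower (-2.92, SE 0.21, adjusted p = 3.13e-13).

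In HSCs of cohort 2, none of the 8 members that passed the filter of 3 CPM in 4 libraries was called in O-NR against O-WT by edgeR at an unadjusted p below 0.01, with 0.726% of 17364 genes called. H2-DMa came nearest, at 38.3, 20.2, 23.6 and 32.3 CPM in O-WT and at 43.2, 28.2, 41.6 and 38.6 CPM in O-NR. The groups overlapped, and the log2 fold change was 0.32 (SE 0.12, adjusted p = 0.995), the only member at an unadjusted p below 0.05, with 3.84% of genes. It passed the threshold with upper quartile scaling (0.31) and without O-WT replicate 1 (0.42) or O-NR replicate 2 (0.37). Cd74 was at 153, 90.9, 81.0 and 150 CPM in O-WT and at 194, 74.6, 106 and 197 CPM in O-NR, with a log2 fold change of 0.18 (95% interval -0.30 to 0.67). The log2 fold changes of the other chains were 0.15 for H2-Aa, 0.28 for H2-Ab1 and 0.12 for H2-Eb1, and that of Ifi30 was -0.29 (95% interval -0.99 to 0.42). Adjusted over all genes, no gene was called.

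Cd83 and Ccr7 were too low in HSCs of cohort 2 for that filter, and their CPM were compared by exact permutation tests. Cd83 had 5 to 10 reads in each O-WT library (0.460, 0.854, 0.783 and 0.561 CPM) and 15 to 29 reads in each O-NR library (2.05, 2.53, 1.30 and 2.47 CPM). Every O-NR library was above every O-WT library, the reverse of the order in CLPs, with means of 2.09 ± 0.568 and 0.665 ± 0.185 CPM (SD, n = 4), and groups did not overlap for 1.21% of the genes that passed the filter. The two-sided exact permutation test gave p = 0.0286, the smallest that 70 regroupings allow, and 0.114 after adjustment over the 4 such tests made. Ccr7 was at 1.01, 0.256, 0.435 and 0.842 CPM in O-WT and at 1.30, 0.960, 1.13 and 1.28 CPM in O-NR, overlapping, with an exact permutation p of 0.0571. One model of all 24 libraries gave the log2 fold change of Cd83 in HSCs as 1.59. Cd83 passed the filter there through the CLPs, whose values chose it, so this is a description.

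**Figure D2:**
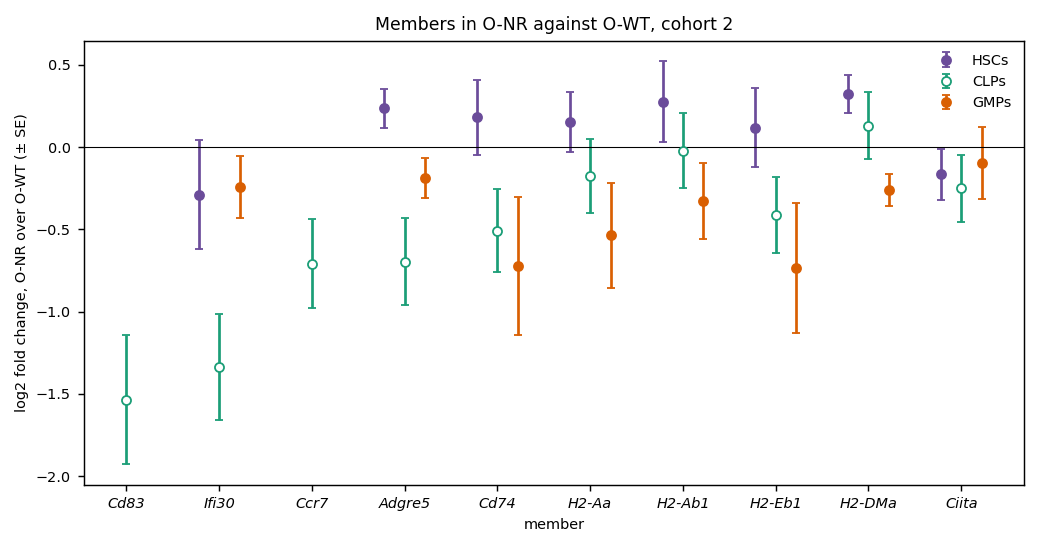
Log2 fold change of each member in O-NR against O-WT in HSCs, CLPs and GMPs of cohort 2, with bars of 1 SE. Open CLP points chose the members and carry no test, Cd83 and Ccr7 have no point in HSCs and GMPs, where they did not pass the filter, and the GMP points of all 8 tested members lie below 0.

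Among genes of other lists, none of the further class II pathway genes was called in HSCs of cohort 2, and 3 of the 13 tested genes of dendritic cell maturation were lower in O-NR, where 0.726% of all genes were called in either direction: Socs2, an inhibitor of cytokine signalling (-1.21, SE 0.29, adjusted p = 0.798), the cytokine Il15 (-0.44, SE 0.14, adjusted p = 0.995) and Nfkb2, a subunit of NF-kappa-B (-0.34, SE 0.11, adjusted p = 0.995). They passed the unadjusted threshold alone. The B lineage marker Ighm, the heavy chain of IgM, was at 5.46 ± 7.11 CPM in O-NR and 153 ± 183 CPM in O-WT (-4.88, SE 0.825, adjusted p = 0.195). All B lineage markers summed to 63.6 to 459 CPM in O-WT and 37.4 to 85.8 CPM in O-NR. B cells, which also carry class II molecules and Cd83, are among those that the lineage-negative gate of the HSC sort, with B220 in its panel, is meant to remove, and their part in the members' values was not tested.

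In GMPs, all 8 members tested had a log2 fold change below 0 in O-NR (median -0.29), as did 50.6% of the 13486 genes tested, and none was called, with 0.986% of genes called. Cd74 was at 25.6, 47.3, 38.3 and 75.0 CPM in O-WT and at 30.3, 41.8, 35.6 and 4.92 CPM in O-NR (-0.72, SE 0.42, adjusted p = 0.997). H2-Eb1 was at 7.83, 11.3, 10.1 and 19.7 CPM and at 8.23, 10.6, 8.83 and 1.67 CPM (-0.74, SE 0.396, adjusted p = 0.997). In both genes O-NR replicate 4 was far below the other 3 O-NR libraries, which lay within the range of O-WT. H2-DMa was at 30.9, 25.8, 29.2 and 24.8 CPM in O-WT and at 23.3, 22.4, 23.9 and 22.9 CPM in O-NR, and it was the only member whose groups did not overlap, as was so for 2.1% of the genes (-0.26, SE 0.10, adjusted p = 0.997). It was also the only member at an unadjusted p below 0.05, with 4.8% of genes, and it passed the threshold without O-WT replicate 2 (-0.31).

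Replicate 4 of O-NR was at the other end for Ifi30, with 22.1 CPM against 12.8, 11.2 and 14.5 CPM in the other O-NR libraries and 20.7, 17.1, 19.6 and 13.7 CPM in O-WT. Its conventional dendritic cell markers summed to 569 CPM, against 238 to 260 CPM in the other 3 O-NR libraries and 281 to 390 CPM in O-WT. Most of this sum was Irf8, a gene of that list, at 423 CPM against 108 to 121 CPM and 143 to 242 CPM. The sum therefore does not show the list as a whole to be higher. Its B lineage markers summed to 160 CPM, against 67.8 to 79.6 CPM and 81.7 to 99.6 CPM. Its monocyte and macrophage markers summed to 796 CPM, against 332 to 378 CPM and 378 to 649 CPM. Without this library the log2 fold change of Ifi30 was -0.47, past the threshold, and that of Cd74 was -0.39, not past it. There 305 of 13828 genes were called, against 133 with all libraries. Leaving out the O-NR library highest in Ifi30 by itself lowers the value of Ifi30. With no filter on low counts, 3 members were called in GMPs, among them Cd74 (-0.74), with 366 of 52453 genes called. Cd83 and Ccr7 had 5 to 27 reads in a GMP library and overlapped between the groups, with exact permutation p of 0.6 and 0.543.

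**Figure D3:**
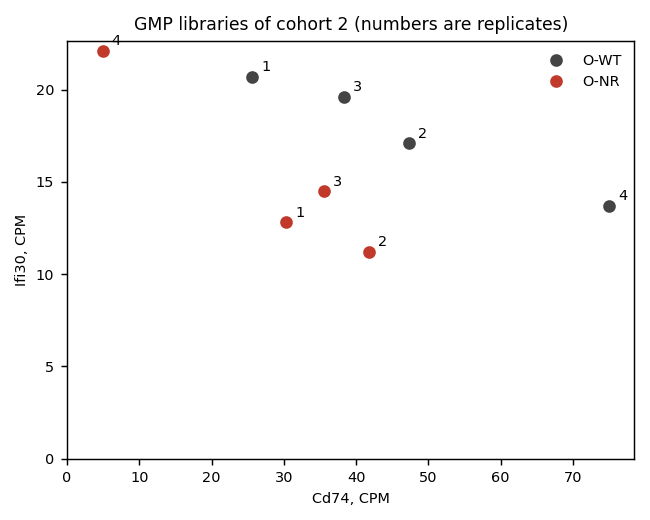
Cd74 against Ifi30, both in CPM, in the 8 GMP libraries, grey for O-WT and red for O-NR, numbered by replicate. O-NR replicate 4 has the lowest Cd74 (4.92 CPM) and the highest Ifi30 (22.1 CPM), and in O-WT the 4 libraries run from high Ifi30 with low Cd74 to low Ifi30 with high Cd74.

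The NR effect in GMPs was set against that in HSCs in one fit of the 16 libraries. H2-DMa was the 1 of 8 members called, with a difference of -0.62 (SE 0.22, adjusted p = 1), among 0.239% of 18016 genes. It was higher in O-NR in HSCs and lower in GMPs. Its call was lost with no filter on low counts (-0.73) and without HSC O-WT replicate 2 or 3 or HSC O-NR replicate 1, 3 or 4, where the difference was -0.52 to -0.62. Cd74, H2-Aa, H2-Ab1 and H2-Eb1 had differences of -0.95, -0.72, -0.64 and -0.87, and none passed.

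In HSCs of cohort 1, all 10 members passed the filter, and none was called in any of the 3 comparisons. Called genes made up 0.048% of 33350 genes for O-NR against O-WT, 0.036% for O-NR-RC against O-NR and 0.078% for O-NR-RC against O-WT, and no member was at an unadjusted p below 0.05, with 0.546%, 0.291% and 0.795% of genes. The 3 comparisons share libraries. Cd74 was at 85.2 and 106 CPM in O-WT, at 64.8, 33.4, 251 and 312 CPM in O-NR and at 163, 72.9 and 69.2 CPM in O-NR-RC. The O-NR libraries fell into a low and a high pair on both sides of O-WT, and the log2 fold change was 0.79 (95% interval -0.88 to 2.46) for NR and -0.70 (95% interval -2.14 to 0.74) after withdrawal against NR.

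H2-Ab1 had the same arrangement, at 44.4 and 46.2 CPM in O-WT, 29, 17.6, 97.7 and 105 CPM in O-NR and 79.3, 29.9 and 29.9 CPM in O-NR-RC. H2-DMa was at 31.0 and 28.6 CPM in O-WT, at 18.2, 17.2, 39.9 and 50.7 CPM in O-NR and at 46.7, 17.2 and 18.8 CPM in O-NR-RC. In these genes the low libraries, O-NR replicates 1 and 2 and O-NR-RC replicates 2 and 3, were those with the high olfactory receptor sum and the low HSC marker sum. Cd83 ran the other way, with 6.66 and 6.18 CPM in O-NR replicates 1 and 2 and 7.80 and 7.77 CPM in O-NR-RC replicates 2 and 3, against 4.74 to 5.69 CPM in the other 5 libraries. All O-NR-RC libraries lay above both O-WT libraries for Cd83 (0.42, 95% interval -0.13 to 0.97), as was so for 5.28% of genes.

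These 4 libraries also had the lowest Cd74 and H2-Ab1, so that leaving them out keeps the high O-NR pair alone and fixes the direction. Values without them are therefore a description. With 2 untreated libraries, 2 with NR and 1 after withdrawal left, the log2 fold changes for NR were 1.53 for Cd74, 1.07 for H2-Aa, 1.13 for H2-Ab1, 1.26 for H2-Eb1 and 0.58 for H2-DMa. The 1 library left after withdrawal differed from O-NR by -0.87 in Cd74, -0.57 in H2-Aa and -0.85 in H2-Eb1. In that setting 574, 1106 and 3117 of 28275 genes were called in the 3 comparisons, and the lone O-NR-RC library is assumed to vary like the other groups. The part of whatever raised the olfactory receptor counts in the class II values was not tested.

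**Figure D4:**
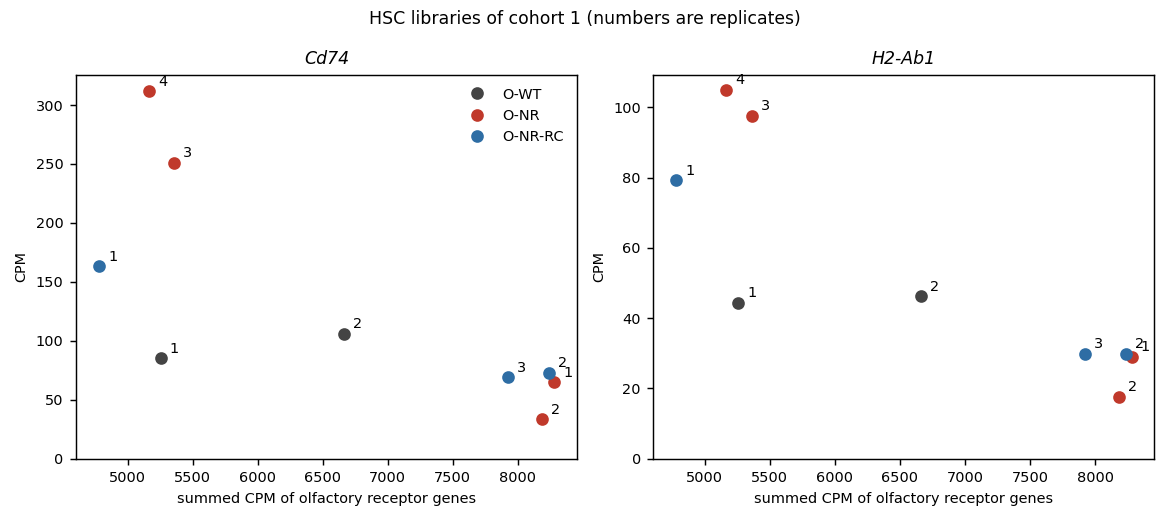
CPM of Cd74 (left) and H2-Ab1 (right) against the summed CPM of 1405 olfactory receptor genes in the 9 HSC libraries of cohort 1, coloured by group and numbered by replicate. The 4 libraries at 7921 to 8281 CPM of olfactory receptors have the lowest Cd74 and H2-Ab1, and O-NR holds 2 of them beside the 2 highest libraries.

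The NR effect in HSCs was compared between the cohorts in one fit. None of the 10 members was called, with 0.228% of 31596 genes. Cd83 came nearest, with a difference of 1.51 (SE 0.55, adjusted p = 0.998), and its log2 fold change in cohort 1 was 0.13. It passed the filter here through the cohort 1 libraries, where it was higher, so its values in this fit are a description. Again as a description, the difference was 1.59 with RLE scaling, 1.54 with the filter at 1 CPM, 1.53 with no filter and 1.60 with DESeq2. It was 1.69 without HSC O-WT replicate 2 and 1.70 without O-NR replicate 3, both of cohort 2. The level of Cd83 in O-WT was 5.29 ± 0.0334 CPM (SD, n = 2) in cohort 1 and 0.665 ± 0.185 CPM (SD, n = 4) in cohort 2, and the cohorts were scaled separately. Every library of cohort 1 also had a higher olfactory receptor sum than the HSC libraries of cohort 2. The part of that sum in these values was not tested.

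Within a cell type, the class II chains rose and fell with Cd74 from library to library. After the treatment means were subtracted, Pearson's r with Cd74 was 0.95 to 0.98 for H2-Aa, H2-Ab1 and H2-Eb1 over 8 HSC libraries of cohort 2, 0.77 to 0.97 over 8 CLP libraries, 0.93 to 0.99 over 8 GMP libraries and 0.98 to 0.99 over the 9 libraries of cohort 1. Spearman's rho was 0.83 to 0.93, 0.81 to 0.98, 0.90 to 0.98 and 0.97 to 1.00 in the same sets. Without the 2 libraries farthest from the median of Cd74, r was between 0.82 and 0.99 in these sets. Ifi30 differed by cell type, with r = 0.92 in HSCs of cohort 2, 0.47 in CLPs and -0.95 in GMPs (0.95, 0.77 and -0.87 without the 2 farthest, rho 0.76, 0.57 and -0.93). Cd83 had r of -0.16, 0.56 and 0.44 in the 3 cell types of cohort 2 and -0.77 in cohort 1. These are descriptions, since libraries share sort, depth and scaling.

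Over all 24 libraries of cohort 2, the genes most like the mean of Cd74, H2-Aa, H2-Ab1 and H2-Eb1 outside the members were Sdc3 (Pearson's r = 0.859), Fads2 (0.844), Katnal1 (0.841), Zfp579 (0.837) and Hs3st1 (0.832), among 22573 genes. Sdc3 was at 14 CPM on average in HSCs, 11.1 CPM in CLPs and 5.27 CPM in GMPs, the order of Cd74. Among the members, Ciita was nearest (0.836) and Ifi30 had r = -0.574. Over the 8 CLP libraries, after the treatment means were subtracted, the nearest were Maged2 (0.973), Tmem141 (0.972), Spryd7 (0.972), Zfp954 (0.966) and Ddhd1 (0.964).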

How the data were processed

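Total RNA of sorted cells was sequenced in 33 libraries. Per the paper's methods, the authors trimmed the reads, mapped these to mm10 using STAR and Gencode M22, and obtained gene counts from featureCounts. The deposited counts are whole and not normalized. The strand setting is not stated. In the labels, 1 field names GMPs differently from the titles, and the titles were used.

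Members and lists were chosen with earlier results of these data known. Genes above 3 CPM in a number of libraries equal to the smaller group's size were scaled with TMM and tested with the quasi-likelihood test of edgeR 4.0.16 in R 4.3.3, checked on simulated data. Calls are an unadjusted p below 0.01 for NR and withdrawal, and a Benjamini-Hochberg adjusted p below 0.05 between cell types. Log2 CPM used a prior of 2. Named were the 10 members, up to 3 genes per direction with the smallest p from a list, and the 5 genes most like the class II mean. Alternatives were other scalings, filters, DESeq2 1.42.0, the replicate block, 1 model of 24 libraries and each library left out. Omitting 4 libraries and the exact tests were added after seeing the data. Exon lengths and positions came from Gencode M21.

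Within-group pairs of libraries differed beyond sampling noise (chi-square per degree of freedom of at least 1.96 in 46 pairs). File names give libraries of different cell types with the same number the same animal, and deviations of such pairs correlated at -0.56 to 0.46. For O-NR and O-WT libraries of the same number, no further link is stated.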

Additional observations from a re-analysis of the deposited data

Results flagged for a closer look

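Of 70 checks for a library far from the other 3 of its group (10 members in 7 groups of 4), 4 stood out, and chance gives about 1 in 20. Of these, 3 were GMP O-NR replicate 4, the lowest of its group for Cd74 (4.92 CPM), H2-Aa (5.61 CPM) and H2-Eb1 (1.67 CPM). The fourth was Cd83 in GMP O-WT replicate 4, the highest of its group at 2.43 CPM.

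The NR effect on H2-DMa differed between GMPs and HSCs by -0.62 (log2, interaction in edgeR, adjusted p = 1, unadjusted p below 0.01). It was higher in O-NR in HSCs and lower in GMPs, and the exons of H2-DMa overlap those of Brd2 on the other strand.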

How the results depend on the processing

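Of 2176 values of 124 tested results under the alternatives, 1921 kept their direction and their side of the threshold, 141 changed sign, 47 fell short of the threshold and 67 newly passed it. The number of members called was 1 rather than 0 in HSCs of cohort 2 with upper quartile scaling, the filter at 1 CPM, no filter, the replicate block or 1 model of 24 libraries. This was H2-DMa with upper quartile scaling (0.31) and the block (0.33) and Cd83 in the others. Cd83 passed the filter at 1 CPM through the O-NR libraries alone, and that of the 1 model through the CLPs. Its calls in these 2 settings support nothing. The number called was 3 in GMPs with no filter, where 366 of 52453 genes were called. Without the 4 cohort 1 libraries of high olfactory receptor sum it was 5 for NR, 3 for withdrawal against NR and 5 for withdrawal against O-WT, in a setting that leaves out the libraries lowest in Cd74. It was 2 for CLPs against HSCs in O-NR with DESeq2, and 2 for the NR effect in GMPs minus HSCs with no filter. For the NR effect between cohorts it was 1 with RLE scaling, the filter at 1 CPM, no filter or DESeq2. This 1 was Cd83, given above as a description. With the replicate block the number was 6. There O-NR replicates 3 and 4 of cohort 1 have no partner and 5158 of 31596 genes were called, against 72. With 1 library left out, it ranged from 0 to 1 in HSCs of cohort 2, from 0 to 1 in GMPs, from 2 to 5 for CLPs against HSCs in O-NR, from 0 to 2 for the NR effect in GMPs minus HSCs and from 0 to 1 for that between cohorts. In CLPs, whose values chose the members, 7 to 10 members had a log2 fold change below 0 under these omissions, and 9 with all libraries.

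With RLE scaling the values of changed sign were, for NR in cohort 1, Adgre5 0.01 and for withdrawal against O-WT, Ciita 0.01 and for GMP against HSC in O-WT, H2-Ab1 0.21, H2-DMa 0.13 and for the NR effect in GMPs minus HSCs, Ifi30 -0.04, Ciita -0.02. With upper quartile scaling they were, for NR in cohort 1, Ccr7 0.03, Adgre5 0.00 and for withdrawal against O-WT, Ciita 0.09. With DESeq2 they were, for NR in cohort 1, Adgre5 0.01 and for withdrawal against O-WT, Ciita 0.01 and for GMP against HSC in O-WT, H2-Ab1 0.21, H2-DMa 0.13 and for the NR effect in GMPs minus HSCs, Ifi30 -0.04, Ciita -0.02. With the replicate block they were, for NR in cohort 1, Ccr7 0.10, Cd74 -0.54, H2-Aa -0.30, H2-Ab1 -0.55, H2-Eb1 -0.23, H2-DMa -0.43 and for withdrawal against NR, Adgre5 0.09, Cd74 0.30, H2-Aa 0.08, H2-Ab1 0.26, H2-Eb1 0.02, H2-DMa 0.13 and for withdrawal against O-WT, Cd74 -0.25, H2-Aa -0.22, H2-Ab1 -0.29, H2-Eb1 -0.21 and for the NR effect in GMPs minus HSCs, Ifi30 -0.02 and for the NR effect between cohorts, Ifi30 0.23, Cd74 1.28, H2-Aa 1.00, H2-Ab1 1.36, H2-Eb1 0.86. Without the 4 libraries of high olfactory receptor sum they were, for NR in cohort 1, Cd83 -0.05, Ifi30 0.07, Adgre5 0.33 and for withdrawal against NR, Adgre5 0.24 and for withdrawal against O-WT, Cd83 0.00, Ifi30 0.21, Adgre5 0.56, H2-DMa 0.54. With the filter at 1 CPM they were, for CLP against HSC in O-WT, Ciita -0.17 and for GMP against HSC in O-WT, H2-Ab1 0.07 and for CLP against HSC in O-NR, H2-Ab1 -0.06, Ciita -0.14 and for the NR effect in GMPs minus HSCs, Ifi30 -0.11, Ciita -0.07. With no filter they were, for CLP against HSC in O-WT, Ciita -0.06 and for CLP against GMP in O-WT, H2-Ab1 -0.03 and for GMP against HSC in O-WT, H2-Ab1 0.25, H2-DMa 0.18 and for CLP against HSC in O-NR, H2-Ab1 -0.11, H2-DMa -0.01, Ciita -0.19 and for the NR effect in GMPs minus HSCs, Ifi30 -0.11, Ciita -0.11.

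Omission of 1 library changed the sign of 30 log2 fold changes, whose ranges were, for NR in cohort 1, Adgre5 -0.23 to 0.13, Ifi30 -0.25 to 0.00, Ccr7 -0.15 to 0.08, H2-DMa -0.25 to 0.28. For withdrawal against NR they were Ifi30 -0.23 to 0.22, Ccr7 -0.01 to 0.26, Adgre5 -0.66 to 0.18, H2-DMa -0.81 to 0.14. For withdrawal against O-WT they were Cd74 -0.43 to 0.30, H2-Eb1 -0.25 to 0.19, H2-Aa -0.42 to 0.21, H2-Ab1 -0.60 to 0.26, Ccr7 -0.02 to 0.19, Ifi30 -0.35 to 0.10, Adgre5 -0.70 to 0.14, H2-DMa -0.73 to 0.13, Ciita -0.05 to 0.04. For the NR effect between cohorts, Ifi30 -0.25 to 0.07, H2-Aa -0.54 to 0.12, H2-Ab1 -0.44 to 0.24 and for the NR effect in GMPs minus HSCs, Ifi30 -0.25 to 0.10, Ciita -0.12 to 0.18 and for NR in HSCs of cohort 2, H2-Eb1 -0.11 to 0.30, Cd74 -0.02 to 0.34 and for NR in GMPs, Ciita -0.22 to 0.16. For GMP against HSC in O-WT, H2-Ab1 -0.12 to 0.27, H2-DMa -0.16 to 0.12 and for CLP against HSC in O-WT, Ciita -0.05 to 0.11 and for CLP against HSC in O-NR, H2-Ab1 -0.28 to 0.27, Ciita -0.17 to 0.13.

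Signs changed for members that were not called before, and the cause was not tested. For O-NR and O-WT libraries no link beyond the number is stated. Deviations of same-numbered libraries correlated at -0.41 to 0.70 in HSCs, -0.24 to 0.41 in CLPs and -0.08 to 0.33 in GMPs. Pairs given the same animal correlated at -0.56 to 0.46, so these values cannot decide whether the number marks a pair. The block gave 253 rather than 126 called genes in HSCs, 184 rather than 82 in CLPs and 125 rather than 133 in GMPs. Between cell types the block changed no call but that of H2-Ab1 given above. Depth limits Cd83 and Ccr7 in HSCs and GMPs of cohort 2, with 29 reads at most in a library.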
